A study of Mus musculus with 6 samples.

Results

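The complement genes described here are C3, C4b, the 3 C1q chain genes (C1qa, C1qb and C1qc), Serping1, Cd55, Cd59a and Masp1. They were taken from the gene table by symbol, and all 9 have a line among its 23404 usable genes. The table measures polyadenylated RNA in cells labelled cardiomyocytes, from mice of strain C57BL/6J, sorted by green autofluorescence (the FITC channel) and forward scatter (FSC), which grows with particle size. The FITChigh/FSCdim gate (FITChigh) was bright and small, and the FITCdim/FSChigh gate (FITCdim) was dim and large, with 3 libraries each. No allele, transgene, treatment or age is named for either gate. Libraries of one gate are described as biological replicates, with nothing that ties them to single animals, so the p-values rest on a spread that may be in part technical.

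Complement is a cascade of plasma proteins that marks surfaces for uptake or lysis. C1q, built from A, B and C chains, starts the classical pathway on antibodies and dying cells, the C1r and C1s proteases cleave C4 and C2, and lectins with MASP proteases start the lectin pathway. All routes meet at C3, whose cleavage feeds the alternative pathway loop and the terminal complex. Serping1 (C1 inhibitor) blocks C1r, C1s and the MASP proteases, CD55 breaks up the enzymes that cleave C3, and CD59 blocks the last step of the membrane attack complex. The liver makes most plasma complement, whereas C1q comes largely from macrophages and dendritic cells. The membrane regulators protect a cell's own surface, that of the heart muscle cell included.

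The 9 genes split by gate. C3, C1qa, C1qb, C1qc, Serping1 and Cd55 were lower in FITChigh, by 4.51-fold (C1qa) to 15.7-fold (C3) on the scale of the test, and their values did not overlap between the gates (20.2% of all tested genes were lower without overlap, and 31.6% were apart in either direction). Cd59a, Masp1 and C4b did not pass the test. So 6 of 9 were called lower and 0 higher, where limma-trend called 13.5% of all 12907 tested genes lower and 2.51% higher (adjusted p under 0.05, Benjamini-Hochberg over all genes tested). By limma-voom on the recovered reads the count of higher genes was also 0, where 360 of all 12907 tested genes were called higher. At an unadjusted p under 0.05 the count among the 9 was 0 too, with no share taken over all genes. Few genes were called higher in all, so a count of 0 among 9 is a description. The median log2 fold change was -2.38 over the 9 genes and -0.01 over all genes tested. All 9 genes passed the filter on low values. Values are read counts that the authors adjusted to a common library size, called adjusted read counts below. Log2 fold changes are of FITChigh minus FITCdim on log2(value + 1), which understates those of low genes.

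**Figure D1:**
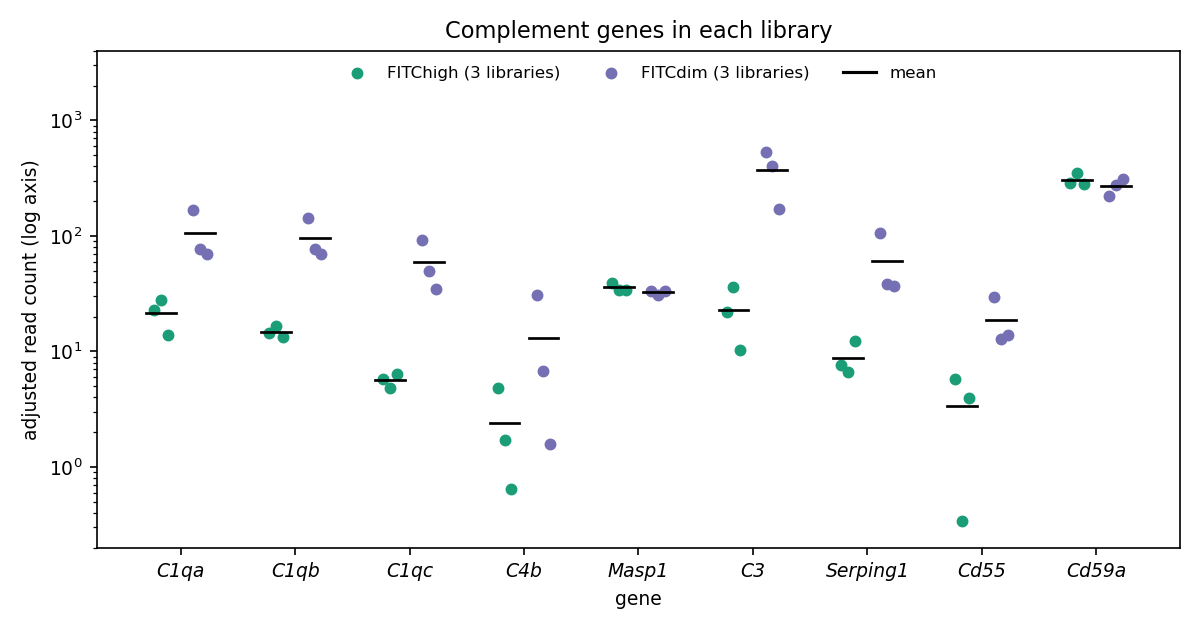
Adjusted read counts (log axis) of the 9 complement genes in the 3 FITChigh and 3 FITCdim libraries, with a black bar at each mean. C3, the C1q chains, Serping1 and Cd55 sit lower in FITChigh without overlap, C4b overlaps, and Cd59a and Masp1 sit at like levels in both gates.

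Promoter sequences are shown for genes at both ends of this split, C3, C1qb and Cd55, which were lower in FITChigh, and Cd59a, which did not pass. Each run is the 250 bases before the RefSeq start of the gene, 5′ to 3′ on its own strand, in build GRCm38.p6. They are chr17:57228137-57228386 (minus strand) for C3, chr4:136886201-136886450 (minus) for C1qb, chr1:130462745-130462994 (minus) for Cd55 and chr2:104095551-104095800 (plus) for Cd59a. Capitals mark matches, on either strand, to any of the 6 motifs searched.
C3: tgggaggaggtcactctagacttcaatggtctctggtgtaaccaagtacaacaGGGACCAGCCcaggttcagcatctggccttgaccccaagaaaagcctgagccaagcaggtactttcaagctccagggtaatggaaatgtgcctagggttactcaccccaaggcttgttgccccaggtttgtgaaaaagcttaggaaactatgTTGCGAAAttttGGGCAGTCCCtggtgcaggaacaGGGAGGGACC
C1qb: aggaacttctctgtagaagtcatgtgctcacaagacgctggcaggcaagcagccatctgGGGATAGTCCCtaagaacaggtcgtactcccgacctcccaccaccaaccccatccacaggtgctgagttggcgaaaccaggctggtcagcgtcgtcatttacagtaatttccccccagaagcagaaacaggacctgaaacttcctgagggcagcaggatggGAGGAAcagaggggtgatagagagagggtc
Cd55: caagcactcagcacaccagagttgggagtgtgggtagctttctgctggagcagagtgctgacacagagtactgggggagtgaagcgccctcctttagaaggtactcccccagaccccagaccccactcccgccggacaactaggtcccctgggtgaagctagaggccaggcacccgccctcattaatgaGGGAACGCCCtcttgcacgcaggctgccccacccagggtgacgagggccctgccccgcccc
Cd59a: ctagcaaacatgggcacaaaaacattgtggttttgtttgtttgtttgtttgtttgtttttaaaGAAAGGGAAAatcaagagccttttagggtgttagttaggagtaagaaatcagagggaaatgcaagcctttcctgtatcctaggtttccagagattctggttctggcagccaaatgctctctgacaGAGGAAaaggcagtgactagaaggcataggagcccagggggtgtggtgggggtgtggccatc

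The motifs were a TATA box (TATAAA), an ETS or PU.1 core (GAGGAA), a C/EBP-type site (TTGCNNAA), an NF-kB-type site (GGGA and CC with any 4 bases between), an interferon-type element (GAAA, any 2 bases, GAAA) and a STAT-type site (TTCNNNGAA). Each was searched over 300 bases, 250 before and 50 after the start. The C3 window held a C/EBP-type match that begins 45 bases before the start and 3 NF-kB-type matches. It also held TATAAA that begins 14 bases after the start, outside the printed run. C1qb held GAGGAA and an NF-kB-type sequence matched on both strands, Cd55 held 1 NF-kB-type match, and Cd59a held GAGGAA and an interferon-type match. Of 32851 RefSeq promoter windows of this length, 13.6% held TATAAA, 28.3% GAGGAA and 20.7% the NF-kB-type letters. The C/EBP-type letters stood in 10.8%, the interferon-type in 3.44% and the STAT-type in 8.3%. A match describes letters and is not a binding site. GAGGAA stood both in C1qb, which was lower in FITChigh, and in Cd59a, which did not pass.

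C1q is the recognition part of C1. Its 3 chain genes lie together on chromosome 4 (136880129 to 136898803 in mm10, GENCODE M21, minus strand, a span of 18675 bases), in the order C1qb, C1qc, C1qa. C1qa (ENSMUSG00000036887.5) stood at 22.9, 28.0 and 13.8 adjusted read counts in FITChigh and at 167, 77.7 and 70.3 in FITCdim. C1qb (ENSMUSG00000036905.8) stood at 14.3, 16.6 and 13.4 against 142, 76.3 and 69.1. C1qc (ENSMUSG00000036896.5) stood at 5.72, 4.84 and 6.42 against 92.9, 50.05 and 34.9. For each chain every FITCdim library was above every FITChigh library, and FITCdim replicate 1 was the highest of its gate. On the log2 scale the change was -2.17 for C1qa (SE 0.32, adjusted p = 1.5e-04), -2.55 for C1qb (SE 0.28, adjusted p = 7.9e-06) and -3.07 for C1qc (SE 0.36, adjusted p = 1.4e-05). Behind these values stood 61, 43 and 17 recovered reads of C1qa, C1qb and C1qc in FITChigh against 392, 350 and 218 in FITCdim. In bulk RNA, fewer cells of a type and less RNA per cell cannot be told apart.

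Since the chains join in equal numbers in the protein, their levels were also compared per kilobase of exon (1040, 1088 and 1931 bases for C1qa, C1qb and C1qc in GENCODE M21, which may not be the authors' annotation). Per kilobase, C1qb stood at 0.90 ± 0.07 times C1qa in FITCdim and 0.70 ± 0.20 times in FITChigh (SD, n = 3 each). C1qc stood at 0.305 ± 0.040 times C1qa in FITCdim and 0.159 ± 0.081 times in FITChigh (SD, n = 3 each). The C1qc to C1qa ratio was below every FITCdim library in all 3 FITChigh libraries (0.134, 0.093 and 0.25 against 0.299, 0.347 and 0.268). The exact two-sided permutation test over 20 assignments gave p = 0.1 for this ratio, 0.1 for C1qc to C1qb and 0.2 for C1qb to C1qa. The smallest p that 3 against 3 libraries allow is 0.1, and adjusted over the 3 ratios the values were 0.15, 0.15 and 0.2. The design could not pass 0.05, so this test says nothing on whether the chains differed, and the ratios are given as a description. The C1qc values in FITChigh rest on 6, 3 and 8 reads.

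Other genes of the classical pathway were given from a list of 50 complement genes. C4b (ENSMUSG00000073418.4, chromosome 17, 34728380 to 34743882, minus strand), the main C4 gene of the mouse, stood at 4.83, 1.72 and 0.64 adjusted read counts in FITChigh and at 30.8, 6.79 and 1.59 in FITCdim. The gates overlapped, and FITCdim replicate 1 held 46 of the 52 reads of its gate. The log2 fold change of -1.54 (SE 0.73, 95% interval -3.10 to 0.02) did not pass (adjusted p = 0.19). It passed with the tag that titles share as a block (adjusted p = 0.035) and without FITCdim replicate 3 (log2 fold change -2.41, adjusted p = 0.016). Without FITCdim replicate 1 it was -0.60 (adjusted p = 0.69). The adjusted p ran from 0.016 to 0.69 over 14 alternatives. Reads of C4b and its near copy C4a cannot be told apart with certainty, and C4a, with 1 read in FITChigh and 2 in FITCdim, was below the filter.

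The proteases of C1 were lower in FITChigh with C1q. C1s1 stood at 3.84, 1.77 and 2.34 adjusted read counts in FITChigh against 32.5, 27.4 and 28.6 in FITCdim (log2 fold change -3.10, SE 0.37, adjusted p = 2.1e-05). C1ra stood at 1.93, 0.097 and 0.756 against 17.3, 10.1 and 7.10 (-2.73, adjusted p = 0.0014), and C2, the partner of C4, at 0, 0.033 and 0.830 against 13.8, 2.90 and 5.84 (-2.57, adjusted p = 0.0054). Counts were small in FITChigh, with 8 reads of C1s1, 3 of C1ra and 1 of C2. No FITChigh library was at 1 or more for C2, so it entered the test through FITCdim alone and its call is a description. By reads, FITCdim stood 12.1-fold above FITChigh for C1ra (95% exact binomial interval 3.86 to 61.1, counting error only) and 24.8-fold for C2 (4.10 to 1015).

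Masp1 did not follow the classical genes. The gene (ENSMUSG00000022887.9, chromosome 16, 23449417 to 23520815, minus strand) encodes 2 MASP proteases of the lectin pathway and a short inhibitory form by splicing, which a value per gene does not separate. It stood at 39.2, 34.1 and 34.1 adjusted read counts in FITChigh and at 33.4, 31.1 and 33.1 in FITCdim. All 3 FITChigh libraries were just above all FITCdim ones, as in 11.4% of all genes tested. The log2 fold change was 0.13 (SE 0.23, 95% interval -0.36 to 0.62, adjusted p = 0.76), and -0.07 when libraries were rescaled to equal totals. Rtp4, at up to 21.1 adjusted read counts, overlaps Masp1 on the other strand, and the strand setting of the counting is not stated.

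Of 6 lectins that work with these proteases, Colec11 and Fcna could be tested. Colec11, a collectin, was lower in FITChigh and stood at 2.83, 7.10 and 3.92 adjusted read counts against 26, 28.3 and 24.1 in FITCdim (log2 fold change -2.34, SE 0.37, adjusted p = 3.2e-04). Fcna, ficolin A, a macrophage lectin, had 0 reads in FITChigh and stood at 21.7, 1.78 and 2.61 in FITCdim, which is at least 10.3-fold lower in FITChigh, counted against 3 reads over the gate (adjusted p = 0.017, and 0.066 after quantile normalization). FITCdim replicate 1 held 32 of its 35 reads. When any FITCdim library was left out, Fcna, like C2, was below the filter. Fcna entered the test through FITCdim alone, so that its call is a description. Mbl1, Mbl2, Fcnb and Colec10 were at 0 in every library. Masp2, at 3 reads and 1 read, was below the filter.

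C3, the hub of the cascade (ENSMUSG00000024164.15, chromosome 17, 57203970 to 57228136, minus strand), had the widest gap of the 9 genes. It stood at 22, 35.8 and 10.4 adjusted read counts in FITChigh and at 533, 400 and 171 in FITCdim. The lowest FITCdim library was far above the highest FITChigh library. C3 changed by -3.97 on the log2 scale (SE 0.39, 95% interval -4.79 to -3.14, adjusted p = 2.7e-06), the fourth lowest (rank 4) of 12907 tested genes. The reads numbered 62 in FITChigh and 1345 in FITCdim.

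Of the factors that work with C3 in the alternative pathway, Cfb missed the threshold narrowly and Cfp did not pass. Cfb, the protease of the loop, stood at 0.957, 0.065 and 0.790 adjusted read counts against 4.30, 4.87 and 2.38 (log2 fold change -1.60, SE 0.53, adjusted p = 0.051). It passed with the title tag as a block (adjusted p = 0.047), without a filter on low values (0.030) and with one common total (0.033). After quantile normalization it did not pass (-0.68, adjusted p = 0.39), nor by limma-voom (0.086) or without FITChigh replicate 2 (0.16). No FITChigh library was at 1 or more, so Cfb entered the test through FITCdim alone. It had 2 reads in FITChigh and 13 in FITCdim. Cfp, properdin, which stabilises the loop's enzyme, stood at 17.2, 16.9 and 15.8 against 28.0, 17.5 and 10.7 (-0.06, SE 0.35, adjusted p = 0.93), and at 0.31 after quantile normalization and 0.26 without FITCdim replicate 1. Cfd, factor D, was at 0 in every library. The terminal genes were scarce. C8a, C8b and C9 were at 0 in every library, Hc (C5) and C6 were below the filter, and C7 and C8g, at 2 and 8 reads in FITChigh against 6 and 8 in FITCdim, did not pass.

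Serping1, the C1 inhibitor gene (ENSMUSG00000023224.12, chromosome 2, 84765387 to 84775444, minus strand), was lower in FITChigh. It stood at 7.61, 6.65 and 12.2 adjusted read counts there and at 105, 38.3 and 37.2 in FITCdim. The gates were apart, and FITCdim replicate 1 was again the highest of its gate. The log2 fold change was -2.51 (SE 0.38, 95% interval -3.32 to -1.69, adjusted p = 2.2e-04), and -2.02 without that library.

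Among the other fluid-phase regulators, Vtn was lower and Clu did not pass. Vtn, vitronectin, which binds terminal complexes, stood at 5.73, 4.79 and 5.57 adjusted read counts in FITChigh against 36.8, 26.4 and 35.3 in FITCdim (log2 fold change -2.40, SE 0.33, adjusted p = 6.9e-05). Clu, clusterin, an extracellular chaperone that also binds terminal complexes, stood at 2738, 2556 and 2378 against 2144, 2753 and 1958, with gates that overlapped (0.18, SE 0.15, adjusted p = 0.49), and at -0.03 with one common total and -0.12 after quantile normalization. Cfi and C4bp were at 0 in every library, and Cpn1 and Cpn2 were below the filter.

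The membrane regulators did not move together. Cd55 (ENSMUSG00000026399.12, chromosome 1, 130439027 to 130462744, minus strand) was lower in FITChigh, at 5.77, 0.339 and 3.99 adjusted read counts against 29.5, 12.9 and 14.0 in FITCdim. The gates were apart, and the value of 0.339 stands for 0 reads, since the adjustment does not return 0 for every library without reads. A count of 0 there allows up to 3 reads, or 4.61 adjusted read counts, still below the lowest FITCdim value. The log2 fold change was -2.38 (SE 0.56, 95% interval -3.56 to -1.2, adjusted p = 0.0070), on 11 reads in FITChigh and 68 in FITCdim. By reads, FITCdim stood 5.48-fold above FITChigh (95% exact binomial interval 2.88 to 11.5, counting error only). The change was smaller but still called with a pseudocount of 4 (-1.63), after quantile normalization (-1.66) and without FITChigh replicate 2 (-1.67). The close copy Cd55b was at 0 in every library.

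Cd59a (ENSMUSG00000032679.12, chromosome 2, 104095801 to 104115354, plus strand), the broadly expressed mouse CD59 gene, stood at 284, 352 and 281 adjusted read counts in FITChigh and at 223, 278 and 310 in FITCdim. The gates overlapped, with a log2 fold change of 0.18 (SE 0.15, 95% interval -0.15 to 0.51, adjusted p = 0.49), and of -0.02 with one common total. The interval leaves out a fall of the size seen in Cd55, whose own interval ends at -1.2, but the difference between both genes was not tested. The depth was not low here, with 881 and 867 reads. Its neighbour and close copy Cd59b, from which reads may not be separable, had 14 reads against 10 and did not pass (0.62, adjusted p = 0.52). Cr1l, the mouse membrane regulator Crry, stood at 81.2, 81.4 and 78.7 against 121, 95.4 and 72.4 (-0.22, SE 0.20, adjusted p = 0.50), and Cd46, which in the mouse is mainly a testis gene, at 3 reads against 10 (-1.11, adjusted p = 0.20).

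Receptors for complement fragments are carried chiefly by myeloid cells. Of 8 listed, 2 were below the filter, and 5 of the 6 tested were called lower, where 13.5% of all tested genes were. Itgam and Vsig4 had no FITChigh library at 1 or more and so entered the test through FITCdim alone, and the count is a description. C5ar1, the C5a receptor, stood at 7.72, 0.369 and 3.08 adjusted read counts against 34.2, 20.1 and 16.3 (log2 fold change -2.68, SE 0.56, adjusted p = 0.0029). C3ar1, the C3a receptor, stood at 0.931, 4.13 and 1.53 against 34.9, 9.47 and 15.1 (-2.64, adjusted p = 0.0018). Itgam and Itgb2, the chains of complement receptor CR3, stood at -3.54 (adjusted p = 8.6e-05) and -2.39 (adjusted p = 0.0072), the latter at 0.076 without FITCdim replicate 1. FITChigh held 12 reads of C5ar1, 6 of C3ar1, 2 of Itgam and 4 of Itgb2, against 84, 74, 65 and 50 in FITCdim. Vsig4, a macrophage receptor for C3 fragments, had 0 reads in FITChigh and 11 in FITCdim, at least 3.25-fold lower against 3 reads over the gate (adjusted p = 0.013, and 0.11 after quantile normalization). C5ar2 did not pass (-0.81, adjusted p = 0.42).

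**Figure D2:**
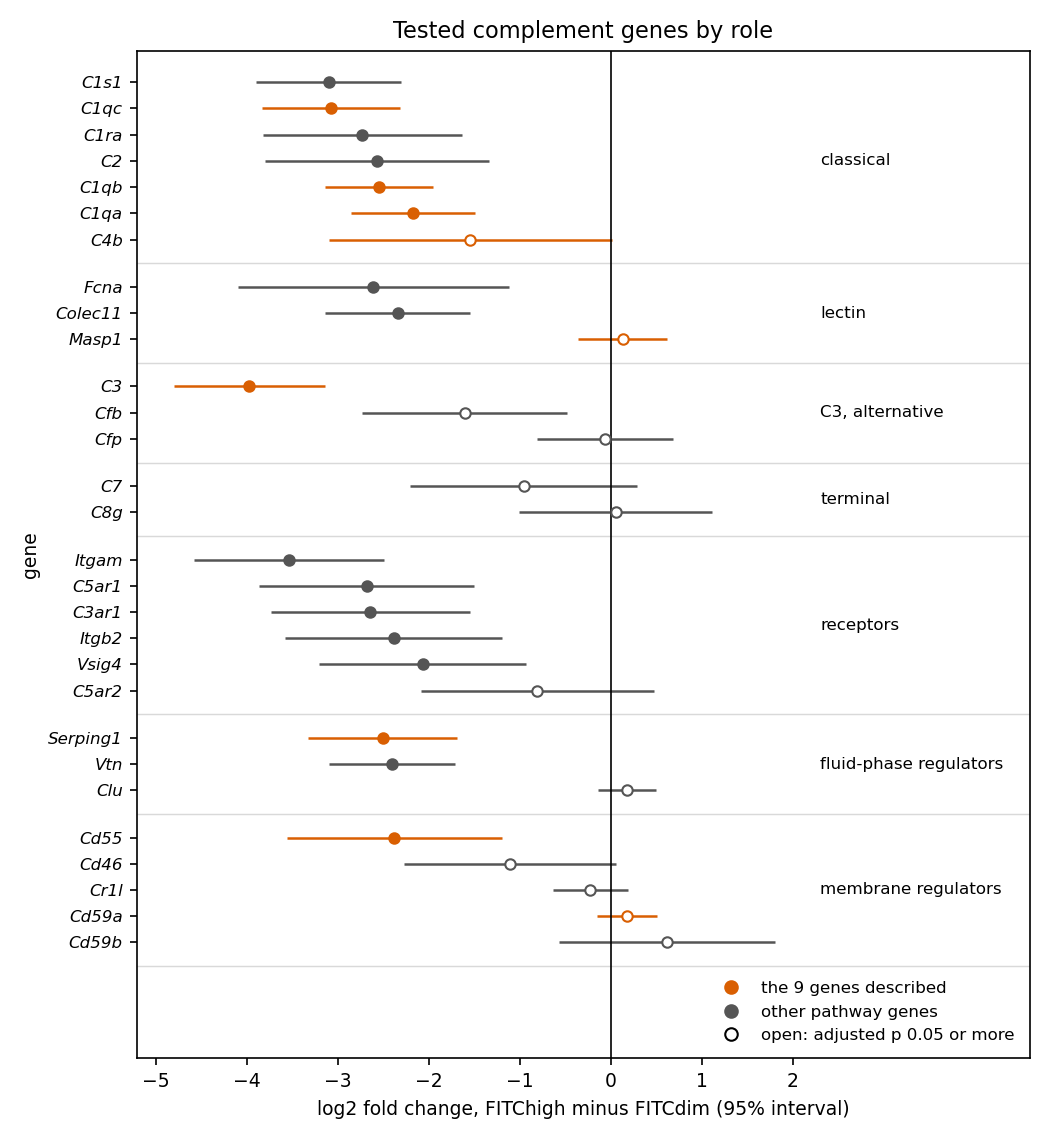
Log2 fold change (FITChigh minus FITCdim) with its 95% interval for the 29 tested complement genes, grouped by role, with filled points for an adjusted p under 0.05. C3 lies farthest to the left at -3.97, and the intervals of C4b, Masp1, Cfp, C7, C8g, C5ar2, Clu, Cd46, Cr1l, Cd59a and Cd59b span 0.

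Of the 50 listed genes, 11 were at 0 in every library, 10 were below the filter and 29 were tested. Of the 29, 17 were lower in FITChigh, 0 were higher and 12 did not pass, with a median log2 fold change of -2.34. Over all genes tested, 13.5% were lower and 2.51% higher, with a median of -0.01. Outside the 9 genes described first, 11 of 20 tested genes were lower. Of these 11, C2, Fcna, Itgam and Vsig4 had no FITChigh library at 1 or more, so they entered the test through FITCdim alone, and the counts are given as a description. The list count was 12 to 17 when a library was left out, lowest without FITCdim replicate 1. With any FITCdim library left out, 24 of the list genes could be tested.

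Markers of cells other than muscle moved with the complement genes. The summed level of 11 macrophage markers, C1q not among them, was 106, 100 and 75.0 adjusted read counts in FITChigh and 937, 471 and 432 in FITCdim, and 9 of the 10 tested were lower. The C1q chains together came to 40.5%, 49.4% and 44.9% of that sum in FITChigh and to 42.9%, 43.3% and 40.3% in FITCdim. These shares overlapped between the gates. They are of a sum led by Lyz2, and single markers differed by other amounts. By reads, FITCdim stood above FITChigh 2.95-fold for Cx3cr1, which did not pass, 3.69-fold for Cd68, 11.9-fold for F13a1 and 13.6-fold for Emr1. For the C1q chains it was 5.69-fold (C1qa) to 11.4-fold (C1qc), so a share of the summed chains need not hold for each chain. Lymphocyte and neutrophil markers were at or near 0, summed, at up to 4.42 and 8.86 adjusted read counts in a library. The part of the cell mix in the C1q difference was not tested.

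**Figure D3:**
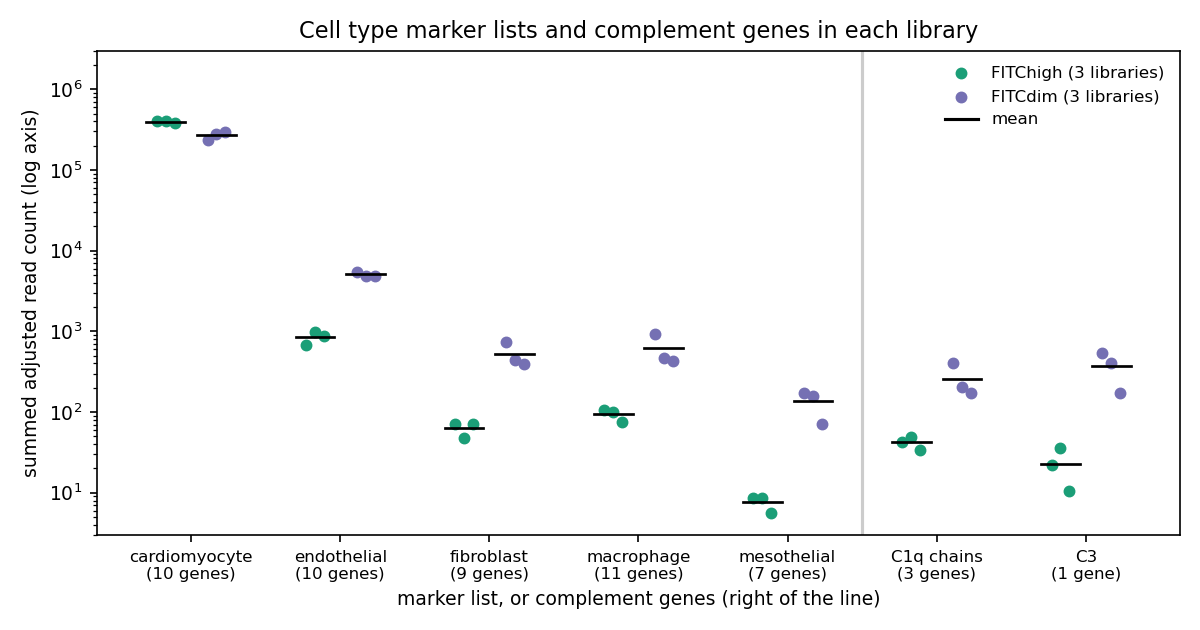
Summed adjusted read counts (log axis) of 5 cell type marker lists, the 3 C1q chains and C3 in each library, with a black bar at each mean. The cardiomyocyte sum is higher in FITChigh, while the other 4 lists, C1q and C3 are lower there without overlap.

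For C3 the marker lists were less alike. The summed level of 9 fibroblast markers was 47.7 to 72.0 adjusted read counts in FITChigh and 397 to 744 in FITCdim, and all 8 tested were lower. That of 7 mesothelial (epicardial) markers was 5.68 to 8.64 against 72.1 to 174, and all 5 tested were lower, with Bnc1 without reads in FITChigh. That of 10 endothelial markers was 675 to 970 against 4912 to 5382, and all 10 were lower. C3 came to 255%, 415% and 183% of the mesothelial sum in FITChigh against 306%, 252% and 238% in FITCdim, which overlap. It came to 31.0%, 75.2% and 14.4% of the fibroblast sum against 71.6%, 89.7% and 43.1%, which overlap too. Relative to the macrophage sum it was lower in FITChigh without overlap (20.7%, 35.8% and 13.9% against 56.9%, 85.1% and 39.7%). Serping1 came to 10.8%, 14.0% and 17% of the fibroblast sum in FITChigh and 14.2%, 8.57% and 9.36% in FITCdim, which overlap. Of the mesothelial sum it came to 88.4%, 77.0% and 215% in FITChigh and 60.6%, 24.0% and 51.6% in FITCdim, higher in FITChigh without overlap. These ratios use few FITChigh reads and carry no test, and which cells held C3 or Serping1 was not tested.

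**Figure D4:**
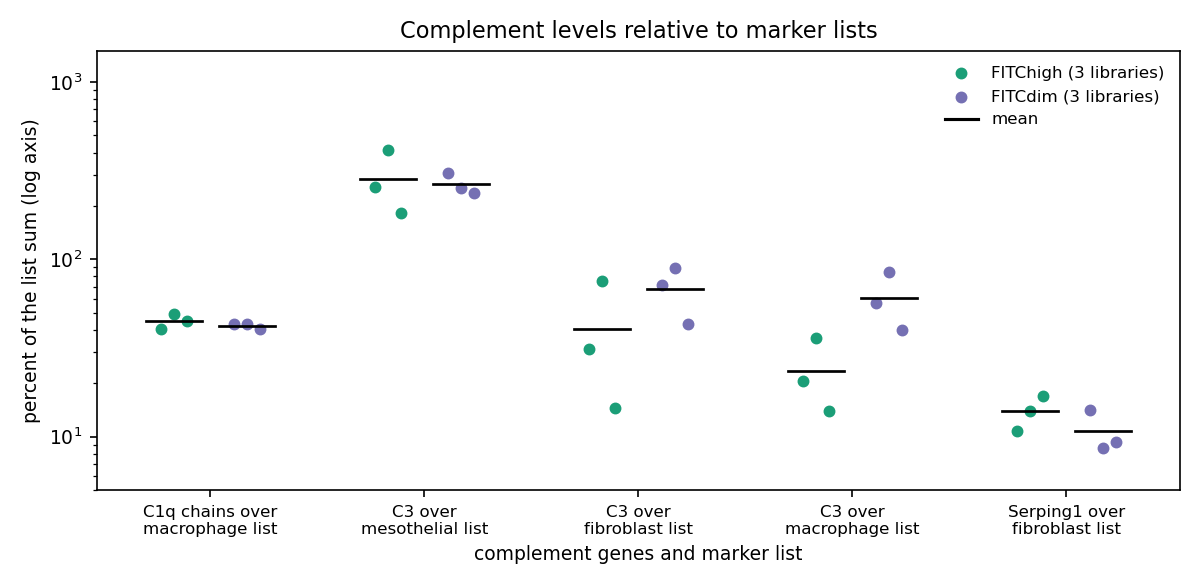
Complement levels as a percent (log axis) of the summed level of a cell type marker list in each library, with a black bar at each mean. The summed C1q chains over the macrophage list lie between 40.3% and 49.4% in all 6 libraries. C3 over the macrophage list is lower in FITChigh.

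Cardiomyocyte markers were abundant in both gates. The summed level of 10 cardiomyocyte markers was 379451 to 404126 adjusted read counts in FITChigh and 233708 to 295185 in FITCdim. Of the 10, Tnni3 was called higher in FITChigh and 0 lower. Atrial muscle markers moved with the complement genes, since 5 of 5 were lower in FITChigh, with a sum of 201 to 443 against 1138 to 2453. Their log2 fold changes ran from -3.28 (Dkk3) to -1.74 (Nppa). Pericyte markers were lower in 5 of 5 (100 to 116 against 458 to 653, summed). Smooth muscle markers were lower in 3 of 4, with a narrower gap in the sum (268 to 372 against 470 to 779). Acta2, the most abundant of the smooth muscle markers, did not pass (log2 fold change -0.45, adjusted p = 0.085). The part of these cells in the complement differences was not tested. Recovered reads numbered 1589825 to 2931045 in FITChigh and 1705626 to 3345994 in FITCdim. The adjusted totals still differed, at 2333473 to 2443707 and 2030583 to 2112872. Over all tested genes the median log2 fold change moved from -0.01 to -0.20 when totals were made equal, with 41 genes called higher and 2189 lower in place of 324 and 1748. Quantile normalization moved that median to 0.13, with 467 higher and 1213 lower.

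The order of the 9 genes by level per kilobase of exon changed between the gates. In FITCdim, Cd59a stood at 149 ± 24.3 adjusted read counts per kilobase, C1qa at 101 ± 51.9, C1qb at 88.1 ± 37.0 and C3 at 71.6 ± 35.6 (SD, n = 3 each). C1qc (30.7 ± 15.6) and Serping1 (25.9 ± 16.8) followed, then Cd55 (3.87 ± 1.91), Masp1 (3.31 ± 0.13) and C4b (2.3 ± 2.74; SD, n = 3 each). Between neighbours in this order, the means differed by more than either SD only for C3 and C1qc and for Serping1 and Cd55. In FITChigh, Cd59a stood alone at 169 ± 22.1, ahead of C1qa at 20.8 ± 6.91 and C1qb at 13.6 ± 1.5 (SD, n = 3 each). C3 (4.42 ± 2.48), Serping1 (3.80 ± 1.28) and Masp1 (3.64 ± 0.30) lay within their spread of each other there, followed by C1qc (2.93 ± 0.41), Cd55 (0.69 ± 0.57) and C4b (0.42 ± 0.38; SD, n = 3 each). Levels per kilobase depend on the exons counted, which for Masp1 sum to 9833 bases over several transcript forms.

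Genes with the most similar profile were sought by the root mean square difference of log2(value + 1) over the 6 libraries, each gene centred on its own mean, among tested genes with a mean of at least 10. Nearest to C3 were Eln (0.42), Upk3b (0.46) and Aebp1 (0.48), of which Upk3b is on the mesothelial list. Nearest to C1qa were Laptm5 (0.15), Lyz2 (0.17) and Cd9 (0.20), of which Lyz2 is on the macrophage list. Nearest to Serping1 were Cbr2 (0.15), Calcrl (0.23) and Postn (0.26), and nearest to Cd55 were Cdh11 (0.27), Phf11d (0.27) and C5ar1 (0.28). C4b had Hpgd (0.40), Ccl9 (0.58) and Ccl3 (0.64). For Cd59a the nearest were Drosha (0.029), Ubl4 (0.045) and Prkab1 (0.050), and for Masp1 Glt25d1 (0.037), Ubfd1 (0.041) and Hdac11 (0.044). Small distances are easy to reach for genes that change little, so distances are not comparable between the 9 genes. The distance spans both gates, so genes with a like log2 fold change come out near. For C1qa (-2.17) that of Laptm5 was -2.14 and that of Lyz2 -2.47. A near gene on a marker list is therefore no separate evidence on cell source, which was not tested.

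**Figure D5:**
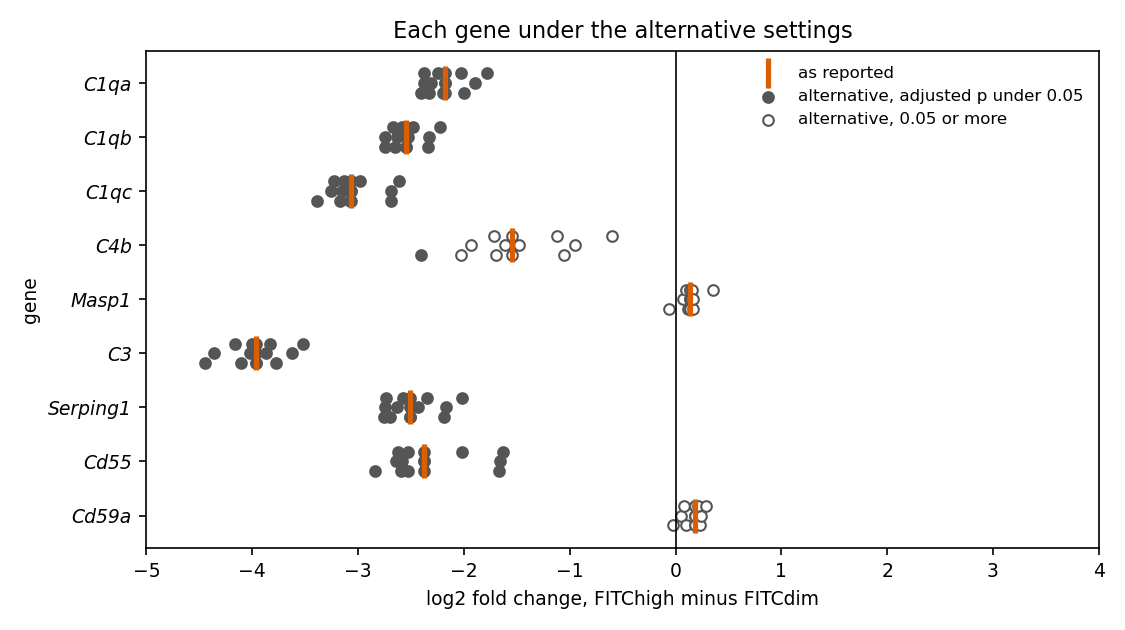
Log2 fold change (FITChigh minus FITCdim) of the 9 genes as reported (orange bar) and under the alternative settings (points, filled where the adjusted p is under 0.05). The 6 genes called lower stay filled in every alternative, C4b spreads from -2.41 to -0.60, and Cd59a and Masp1 lie around 0.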

How the data were processed

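Stranded mRNA libraries of 6 sorted samples were sequenced as paired reads, per the labels' protocols. STAR 2.5, edgeR and the build mm10 are named in the submitters' processing notes. Not given in the sources used here are the counting program, the annotation and the strand setting. Each deposited value is a signal, namely a gene's read count after the authors scaled libraries toward one size, with no division by gene length. Columns were matched by title, and 6 garbled lines of 23410 were left out. The reads behind the values were recovered by undoing that scaling (negative binomial quantiles, dispersion 0.0203), and 100% of values came out whole within 0.1. They give depth, floors (3 reads) and intervals, which cover counting error only.

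Genes at 1 or more in at least 3 libraries (12907) were taken to log2(value + 1) and tested by limma-trend (limma 3.58.1, two-sided, no block) in R 4.3.3, with Benjamini-Hochberg adjustment at 0.05, and the script was tested on simulated data. Python 3.11.15 made tables and figures. Positions and exon lengths are from GENCODE M21. Promoters are from RefSeq, which matched 5 of the 9 genes. That of C1qc is not printed, since its RefSeq start lies inside the GENCODE gene. The 9 genes, lists and alternatives were chosen with earlier results of these data known. Named are the 9 genes, every list gene past the test, the most abundant tested gene per role, genes at 0 and the 3 most similar genes. A gene first on the list is not reported here and was left out of its counts. Others, such as Cr1l, Cfb and Cfp, were named after their values were seen. Of libraries with the same title tag, deviations from the gate means correlated at 0.12, 0.27 and 0.30 over 9894 genes. Between libraries of unlike tags the correlations ran from -0.26 to -0.02. These values are tied to each other, since deviations within a gate cancel out. The labels do not say that the tag pairs libraries, so the main fit has no block. The tag as a block is an alternative, given where it changes a call. If the tag does mark pairs, the main p-values leave that out. Within a gate, every pair of libraries differed by more than sampling noise (chi-square over its degrees of freedom 3.87 to 6.60), so none was merged.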

Additional observations from a re-analysis of the deposited data

How the results depend on the processing

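Over 15 alternatives, C3, C1qa, C1qb, C1qc, Serping1 and Cd55 kept their direction and their call. Their highest adjusted p values were 1.2e-04, 7.3e-04, 5.9e-05, 1.5e-04, 0.0012 and 0.040. The number of the 9 genes called lower was 6 to 7 when a library was left out, and that of the complement list 12 to 17. Over all genes tested it was then 1152 to 1672. With the title tag as a replicate block the counts were 7 and 19, and beside C4b the block changed only Cfb (adjusted p = 0.047). Cfb also passed without a filter on low values (0.030) and with one common total (0.033). It did not pass in the other alternatives that could test it, with an adjusted p of up to 0.39 (quantile normalization). Quantile normalization gave 15 list genes, and called 1213 of all 12907 tested genes lower. A stricter filter, at 5 or more in at least 3 libraries, gave 13 of the 18 list genes that it left to test. It called 1490 of all 11018 genes tested lower. List genes such as C1ra and Itgam had no FITChigh library at 5 or more and passed it through FITCdim alone, so this count is a description. C4b could not be tested under that filter, nor could C2, Fcna, Itgb2 and Vsig4, which were called in the main fit. When any FITCdim library was left out, C2, Fcna, Cfb, Itgam and Vsig4 could not be tested.

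Some values near 0 changed sign. With one common total, Cd59a stood at -0.0219, Masp1 at -0.0660, C8g at -0.0903 and Clu at -0.0287. After quantile normalization, Cfp stood at 0.31, C7 at 0.12, C5ar2 at 0.0338 and Clu at -0.12. With a library left out, Cfp ran from -0.39 (without FITCdim replicate 3) to 0.26 (without FITCdim replicate 1). C8g ran from -0.17 (without FITChigh replicate 1) to 0.27 (without FITCdim replicate 2), and stood at -0.13 without FITCdim replicate 1. None of these passed the test, and the cause was not tested. Across all genes the number called higher was 324, and 41 with one common total, 1064 with the block, 67, 185 and 148 without FITChigh replicate 1, FITChigh replicate 2 and FITCdim replicate 1. The number called lower was 1748, and 2059 with the block and 1152 without FITCdim replicate 1. Depth limits C4b, Cd55, C1ra, C1s1, C2, Fcna, C3ar1, Itgam, Itgb2 and Vsig4, with 0 to 11 reads in FITChigh. The same holds for Cfb, C7, C8g, C5ar2 and Cd46, which did not pass.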
